A study of Mus musculus with 16 samples.

Results

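The genes described here are 46 mouse genes that encode the antigen receptor of T cells and the proteins that carry, tune and end its signal. They run from the receptor chains to the transcription factors. Each gene was read from its brightest probe set annotated to that symbol and no other. Such a probe set was found for 44 of the 46 genes, among 19938 genes in all. The kinase gene Lck and the NF-kappaB subunit gene Nfkb1 are not analysed here. By role the 44 genes are 5 receptor chains and coreceptor, 3 surface modulators, 5 proximal kinases, 9 adaptors, 6 genes of the second messenger and diacylglycerol arm, 5 of the calcium and NFAT arm, 5 of the NF-kappaB arm, and 6 phosphatases and ubiquitin ligases.

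The cells were regulatory T cells (Treg), CD4 T cells that restrain other T cells, from the lymph nodes of C57BL/6 wild type female mice aged 8 to 12 weeks. Nodes from several body sites were pooled before sorting. The sort used CD103, an integrin chain encoded by Itgae, and ICOS, a costimulatory receptor. It gave CD103neg ICOSneg (double-negative), CD103pos ICOSneg (CD103 single-positive), CD103neg ICOSpos (ICOS single-positive) and CD103pos ICOSpos (double-positive) cells. Fresh cells gave RNA straight after the sort. Activated cells gave RNA after 3 days in a suppression assay, in which 200000 Treg of 1 subset shared a well with 1000000 naive CD4 cells of the Ly5.1 congenic strain. The well also held 2000000 irradiated splenocytes from Rag2-/- mice, which lack mature T and B cells, and 0.5 ug/ml of soluble anti-CD3, an antibody that engages the receptor complex itself. The Treg were sorted again as Ly5.1neg CD4pos CD25pos cells. The labels give 2 biological replicates, each on its own array, for every 1 of the 8 groups, and 270 ng of total RNA went into each labelling. Fresh cells had no culture of their own, so that stimulation, 3 days of culture, the other cells of the well and the second sort cannot be told apart.

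The receptor itself has no enzyme activity. Its CD3 and zeta chains are phosphorylated by Src-family kinases, which recruits ZAP-70, and ZAP-70 phosphorylates the adaptors LAT and SLP-76. These assemble phospholipase C-gamma, whose products open the calcium to NFAT arm and the diacylglycerol arm, and the latter leads through protein kinase C-theta to CARMA1, BCL10 and MALT1 and so to NF-kappaB. Treg need this signal for their activity after they leave the thymus, and phosphatases, diacylglycerol kinases and ubiquitin ligases restrain it.

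Levels are log2 intensities of 1 probe set per gene, so a difference of 1 is a doubling of intensity, and levels are compared between arrays for 1 gene and never between genes. Array medians lay between 6.26 and 6.48, and 43 of the 44 genes lay above the median on every array. Foxp3, whose product defines the Treg lineage, was at 11.69 to 12.84 on 15 arrays and at 8.53 on activated ICOS single-positive replicate 2. That array also read 6.30 for Itgae and 11.25 for Icos, while its partner read 12.88 for Icos. Its Icos level was below those of all 4 activated ICOS-negative arrays, and the Itgae level of its partner was above the 9.94 and 9.87 of the activated CD103 single-positive arrays. On this array the mean deviation from each gene's average was -1.66 over 21 Treg core genes, 0.88 over 13 naive and central T cell genes and 1.16 over 10 CD8 and NK genes, with Cd8a at 6.11 and Cd8b1 at 8.62. Results are given with all 16 arrays and, where they change, without this array. Elsewhere Cd8a reached 7.78 and 8.05 on the fresh CD103 single-positive arrays, against 6.56 or less on the other arrays. Cd3d, Cd3e, Cd3g and Cd4 lay above the array median on every array.

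**Figure D1:**
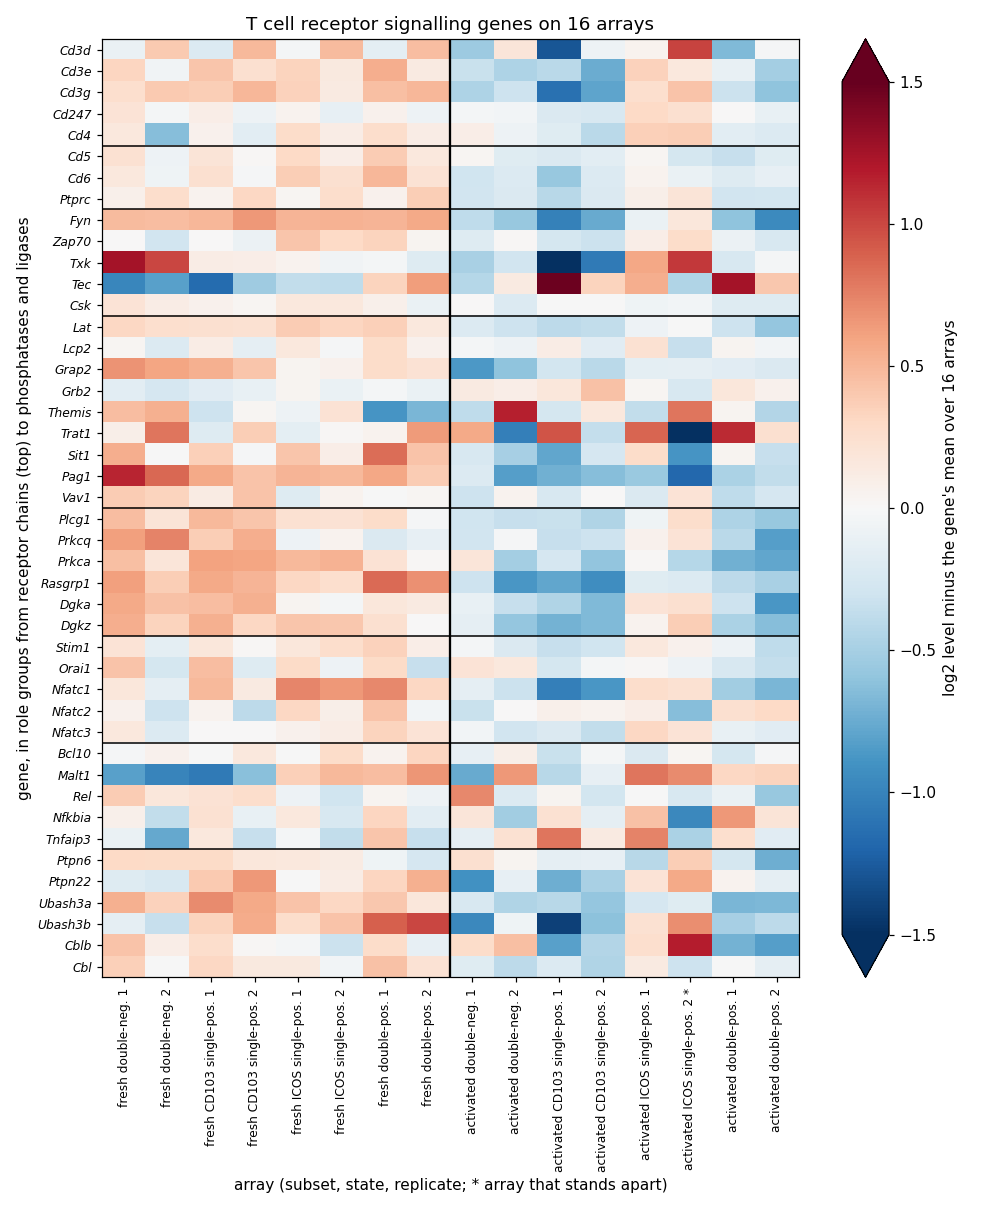
Log2 intensity of each of the 44 genes (rows, grouped by role) on each of the 16 arrays (columns), shown as the deviation from that gene's mean over all arrays, with an asterisk at the array that stood apart. The activated arrays are mostly below the gene means, apart from ICOS single-positive replicate 1 and replicate 2, whose mean deviations over the 44 genes are 0.12 and -0.02.

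Averaged over the 44 genes, the 8 fresh arrays deviated from the gene means by 0.07 to 0.27, and 6 of the 8 activated arrays by -0.35 to -0.15. The lowest were the activated CD103 single-positive arrays at -0.35 and -0.33. Of the activated ICOS single-positive arrays, replicate 1 lay within the fresh range at 0.12 and replicate 2 between the other fresh and activated arrays at -0.02. In a bulk sample fewer cells that express a gene and less RNA per cell cannot be told apart.

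Activated against fresh cells, averaged over the 4 subsets, showed 25 of the 44 genes lower and 2 higher. Genes were called in limma where the p adjusted after Benjamini-Hochberg over the 19938 genes was below 0.05. Of all genes 31.2% passed, 16.8% as lower and 14.4% as higher, against 56.8% and 4.55% of the 44. These shares of all genes include dim genes. A dim filter kept 11643 genes above the median of all values on at least 2 arrays, with all 44 among them. Of these 11643 genes 5874 passed, and of the 44 again 25 as lower and 2 as higher. Lower and higher were not counted apart over the 11643 genes. The median difference was -0.35 over the 44 genes and -0.0032 over all genes. Each of the 27 passing genes kept its sign when either replicate number was read alone. They were picked for passing on the mean of these same arrays, so the signs are no separate support. Without activated ICOS single-positive replicate 2, 27 genes passed as lower and 2 as higher, where 30.7% of all genes passed, 16.4% as lower and 14.2% as higher. The genes added were Bcl10 (-0.24, limma adjusted p = 0.0492) and Ptpn6 (-0.36, adjusted p = 0.00469).

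Among the 5 receptor chains and coreceptor, 2 fell. Cd3g, which encodes the gamma chain of CD3, ran from 12.24 to 12.60 with a median of 12.49 on the fresh arrays, and from 10.99 to 12.53 with a median of 11.71 on the activated arrays. Both activated ICOS single-positive arrays, at 12.36 and 12.53, lay within the fresh range, and the other 6 activated arrays lay below it. The mean difference was -0.73 (SE 0.07, limma adjusted p = 1.42e-05), a 1.66-fold reduction. Cd3e, the epsilon chain that anti-CD3 antibodies to mouse cells usually bind, went from a fresh median of 12.56 (12.23 to 12.82) to an activated median of 11.91 (11.53 to 12.62). Its difference was -0.51 (SE 0.10, adjusted p = 0.00154), and here too only the ICOS single-positive arrays, at 12.62 and 12.44, overlapped the fresh ones. The zeta chain gene Cd247 lay at 10.21 to 10.53 fresh and 10.09 to 10.63 activated, with a difference of -0.03 (SE 0.06, adjusted p = 0.788).

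Cd3d, the delta chain, differed by -0.34 (SE 0.23, adjusted p = 0.342) between medians of 10.64 and 10.42. Its replicates were far apart, with activated CD103 single-positive arrays at 9.18 and 10.39 and ICOS single-positive arrays at 10.51 and 11.47. Cd4, the coreceptor, gave -0.05 (SE 0.10, adjusted p = 0.778), from 11.19 to 12.11 fresh and 11.43 to 12.20 activated. Thus 2 of the 5 genes passed and 3 did not. Whether the chains differ from each other was not tested.

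All 3 surface modulators fell. Cd6, a scavenger-type receptor that binds ALCAM, differed by -0.41 (SE 0.08, adjusted p = 0.00135), and Cd5, an inhibitory receptor whose level tracks receptor signal strength in thymocytes, by -0.32 (SE 0.08, adjusted p = 0.00656). Ptprc, which encodes the phosphatase CD45, differed by -0.36 (SE 0.07, adjusted p = 0.00208).

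Of the 5 proximal kinases, 3 fell and 1 rose. Fyn, a Src-family kinase, lay between 11.49 and 11.68 on the fresh arrays and between 10.01 and 11.19 on the activated ones, so that no activated array reached a fresh one. Its difference was -1.05 (SE 0.07, limma adjusted p = 1.11e-06), a 2.07-fold reduction. Tec, which encodes a kinase of the Tec family, went the other way, from a median of 7.56 (6.86 to 8.64) to 8.38 (7.56 to 9.48), a difference of 0.82 (SE 0.21, adjusted p = 0.0122). The ranges of Tec overlapped, and the fresh double-positive arrays, at 8.35 and 8.64, were above several activated ones. Txk, another Tec-family kinase, differed by -0.56 (SE 0.11, adjusted p = 0.00209) and is described by subset further on. Csk, which phosphorylates the inhibitory site of Src-family kinases, differed by -0.17 (SE 0.05, adjusted p = 0.0156).

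Zap70, the kinase that docks on the phosphorylated chains, gave -0.18 (SE 0.07, adjusted p = 0.0707). Its fresh levels were 10.89 and 10.60 in double-negative, 10.89 and 10.80 in CD103 single-positive, 11.30 and 11.19 in ICOS single-positive, and 11.22 and 10.93 in double-positive cells. The activated levels, in the same order, were 10.69 and 10.90, 10.62 and 10.57, 10.99 and 11.16, and 10.80 and 10.65. The mean was highest in ICOS single-positive cells in both states, and the states overlapped.

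Among the 9 adaptors, 5 fell and 1 rose. Pag1, a raft protein that brings CSK to the membrane, had the largest difference of the 44 genes, -1.24 (SE 0.11, limma adjusted p = 7.77e-06), 2.36-fold. Its fresh levels lay between 8.60 and 9.37 and its activated levels between 7.05 and 8.02, with no overlap. Grap2, which encodes the SLP-76 partner GADS, differed by -0.70 (SE 0.05, adjusted p = 1.71e-06), and Lat by -0.56 (SE 0.05, adjusted p = 1.48e-05), again with no overlap between the states. Sit1, an inhibitory transmembrane adaptor, differed by -0.67 (SE 0.18, adjusted p = 0.0123). Vav1, the exchange factor for Rac, differed by -0.29 (adjusted p = 0.0268). Grb2, the general adaptor that links receptors to SOS, rose by 0.22 (SE 0.06, adjusted p = 0.015). Lcp2, which encodes SLP-76, gave -0.07 (adjusted p = 0.647). The Vav1 call passed in 8 of the 16 fits that each left out 1 array, and was lost without fresh double-negative replicate 1, fresh CD103 single-positive, ICOS single-positive or double-positive replicate 2, or replicate 1 of any activated subset (adjusted p 0.054 to 0.0681).

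All 6 genes of the second messenger and diacylglycerol arm fell. Rasgrp1, the diacylglycerol-binding exchange factor that activates Ras in T cells, went from 11.70 to 12.30 on the fresh arrays to 10.51 to 11.27 on the activated arrays, a difference of -1.04 (SE 0.08, limma adjusted p = 3.18e-06). The states did not overlap. Prkca, protein kinase C-alpha, had a fresh median of 11.09 (10.64 to 11.22) and an activated median of 10.15 (9.84 to 10.80), a difference of -0.77 (SE 0.11, adjusted p = 0.000218), with activated double-negative replicate 1 inside the fresh range. Plcg1, phospholipase C-gamma1, differed by -0.56 (SE 0.07, adjusted p = 7.57e-05), and Prkcq, protein kinase C-theta, by -0.48 (SE 0.07, adjusted p = 0.000345). The enzymes that remove diacylglycerol moved the same way, with Dgka at -0.59 (SE 0.08, adjusted p = 0.000186) and Dgkz at -0.70 (SE 0.08, adjusted p = 6.32e-05). Dgkz was the only one of the 44 genes with a further probe set of its own. That one was dimmer, with a mean level of 6.70 against 10.34, and differed by 0.13 (SE 0.10) with the sign reversed.

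In the calcium and NFAT arm 2 of 5 fell, Nfatc1 by 0.77 on the log2 scale (SE 0.08, limma adjusted p = 3.03e-05) and Stim1, the calcium sensor of the endoplasmic reticulum, by 0.28 (SE 0.07, adjusted p = 0.012). Nfatc2 gave -0.05 (adjusted p = 0.831), Nfatc3 -0.17 (adjusted p = 0.0672), and the channel gene Orai1 -0.14 (adjusted p = 0.511). None of the 5 genes of the NF-kappaB arm passed in limma with all 16 arrays, and 2 of them, Bcl10 and Malt1, had an unadjusted p below 0.05 (0.0211 and 0.0454). Bcl10 gave -0.21 (adjusted p = 0.0644), Malt1, the protease of the CARMA1 complex, 0.38 (SE 0.17, adjusted p = 0.119), Tnfaip3, which encodes the inhibitor A20, 0.35 (adjusted p = 0.261), Nfkbia 0.02 (adjusted p = 0.956) and Rel -0.15 (adjusted p = 0.442).

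Of the 6 phosphatases and ubiquitin ligases, 4 fell. Ubash3a, a suppressor of receptor signalling also called STS-2, lay between 10.87 and 11.40 on the fresh arrays and between 10.01 and 10.52 on the activated arrays, a difference of -0.87 (SE 0.06, limma adjusted p = 1.21e-06) without overlap. Its paralogue Ubash3b, STS-1, differed by -0.75 (SE 0.15, adjusted p = 0.00235). Ptpn22, a phosphatase of Src-family kinases and ZAP-70, differed by -0.39 (adjusted p = 0.0202) and lost the call without activated CD103 single-positive replicate 1 (-0.36, adjusted p = 0.0501). Cbl, a ubiquitin ligase, differed by -0.39 (adjusted p = 0.00555), and its relative Cblb gave -0.16 (adjusted p = 0.454). Genes that pass on the signal and genes that restrain it were both among those that fell.

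In 6 of the 44 genes (Fyn, Lat, Grap2, Pag1, Rasgrp1 and Ubash3a), or 13.6%, all 8 activated arrays were below all 8 fresh arrays, against 3.86% of all genes. In none were all activated arrays above, against 3.27% of all genes. Without activated ICOS single-positive replicate 2 there were 7, with Plcg1 added, against 5.41% of all genes.

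Other gene lists moved in the same comparison. All 24 measured cell cycle genes rose, with a median difference of 2.60. Of 9 B cell genes 6 fell (median -0.58), of 18 myeloid and dendritic genes 7 fell and 1 rose (median -0.10), of 10 CD8 and NK genes 2 fell, and of 6 erythroid and platelet genes none passed. Among the 13 measured genes of naive and central T cells 7 fell and 1 rose, of 9 genes of activated conventional CD4 cells 5 rose and 2 fell, and of 21 Treg core genes 6 rose and 5 fell. On the array means, the B cell list lay between -0.06 and 0.82 fresh and between -0.54 and -0.13 activated, and the myeloid list between -0.13 and 0.50 and between -0.27 and 0.03. The part of these lists in the differences of the 44 genes was not tested.

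Activation was also read in each subset. In CD103 single-positive cells 20 of the 44 genes fell and 2 rose (20.2% of all genes passed, 10% as lower and 10.2% as higher), with a median of -0.50 over the 44. In double-positive cells 17 fell (14.1% of all genes passed, 8.7% as lower, median -0.44 over the 44), and in double-negative cells 12 fell (16.2% of all genes, 7.59% as lower, median -0.29). In ICOS single-positive cells 2 fell, Pag1 by 1.37 (limma adjusted p = 0.0101) and Ubash3a by 0.58 (adjusted p = 0.033), where 2.09% of all genes passed, 1.06% as lower, and the median over the 44 was -0.12. The share of all genes that passed was thus also lowest in that subset.

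The number of passing genes depended on single arrays. The calls over all genes in the same fits are mostly not given, so these counts do not set the 44 genes apart from the rest. In double-positive cells it was 17 with all arrays, 6 without activated double-positive replicate 2, and 8 and 9 without fresh double-positive replicates 1 and 2. In ICOS single-positive cells the count was 0 in limma without either fresh array of that subset (8 and 9 of the 44 genes at an unadjusted p below 0.05), 4 without activated replicate 1 and 1 without activated replicate 2 (1.62% of all genes, 0.522% as lower), which left Pag1 at an adjusted p of 0.0479. Over all fits that each left out 1 array it stayed between 10 and 14 in double-negative and between 17 and 23 in CD103 single-positive cells.

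The 25 genes that fell on average all had negative differences in the double-negative, CD103 single-positive and double-positive subsets, and 17 of them did in ICOS single-positive cells. With ICOS single-positive replicate 1 as the only activated array of that subset, 17 were again negative. The difference was least negative in ICOS single-positive cells for 19 of the 25 genes and most negative in CD103 single-positive cells for 14. Fyn fell by 1.46 in CD103 single-positive, 1.32 in double-positive and 0.94 in double-negative cells (limma adjusted p = 4.35e-05, 0.000263 and 0.0011). Its activated levels were 10.93 and 11.19 in ICOS single-positive cells, above the other 6 activated arrays (10.01 to 10.65). Cd3g fell by 1.38, 0.94 and 0.71 in the same order of subsets (adjusted p = 5.54e-05, 0.00156 and 0.00522) and gave 0.10 (adjusted p = 0.866) in ICOS single-positive cells. Cd3e had the same order, with -0.90 in CD103 single-positive (adjusted p = 0.0064), -0.64 in double-positive (adjusted p = 0.0482), -0.53 in double-negative (adjusted p = 0.0924) and 0.01 in ICOS single-positive cells (adjusted p = 0.99). The double-positive call of Cd3e was lost in 10 of the 16 fits without 1 array (adjusted p 0.054 to 0.319), among them those without fresh double-positive replicate 1, activated double-positive replicate 2 and either activated ICOS single-positive array.

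By size, the genes that passed in double-negative cells were Pag1 (-1.52), Txk (-1.51), Grap2 (-1.36), Rasgrp1 (-1.08), Fyn (-0.94), Prkcq (-0.84), Dgkz (-0.80), Ubash3a (-0.78), Dgka (-0.74), Cd3g (-0.71), Plcg1 (-0.65) and Lat (-0.54), with limma adjusted p between 5.36e-06 for Grap2 and 0.00917 for Dgka. In CD103 single-positive cells the 12 largest were Tec (1.74), Txk (-1.53), Fyn (-1.46), Ubash3b (-1.45), Rasgrp1 (-1.39), Cd3g (-1.38), Nfatc1 (-1.26), Pag1 (-1.18), Ubash3a (-1.14), Ptpn22 (-1.13), Dgkz (-1.11) and Dgka (-1.06), and Grb2 (0.44, adjusted p = 0.0228) was the other gene that rose. In double-positive cells the largest were Ubash3b (-1.39), Fyn (-1.32), Rasgrp1 (-1.21), Nfatc1 (-1.12), Ubash3a (-0.97), Cd3g (-0.94), Pag1 (-0.89), Prkca (-0.87), Dgka (-0.76), Lat (-0.71), Dgkz (-0.69) and, at the same size as Cd3e, Plcg1 (-0.64).

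The genes lower in all 3 of these subsets numbered 10 of the 44 (22.7%), and were Cd3g, Fyn, Lat, Grap2, Pag1, Plcg1, Rasgrp1, Dgka, Dgkz and Ubash3a, where 4.72% of all genes were. Without fresh double-positive replicate 1 or activated double-positive replicate 2 the count was 5 (Cd3g, Fyn, Lat, Rasgrp1 and Ubash3a), where 3% and 2.49% of all genes were lower in all 3 subsets. The 10 include a receptor chain, a kinase, adaptors, the phospholipase, the Ras activator and both kinases that consume diacylglycerol. Tec in CD103 single-positive cells (limma adjusted p = 0.0135) was lost without fresh or activated replicate 1 of that subset (adjusted p = 0.107 and 0.128), and Grb2 without either fresh array or activated replicate 2 (0.106, 0.0696 and 0.177). Ubash3b in the same cells (adjusted p = 0.00516) was lost without activated replicate 1 (0.0523), and in double-positive cells (adjusted p = 0.0107) without fresh replicate 2 or either activated array of that subset (0.0672, 0.0544 and 0.0519).

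**Figure D2:**
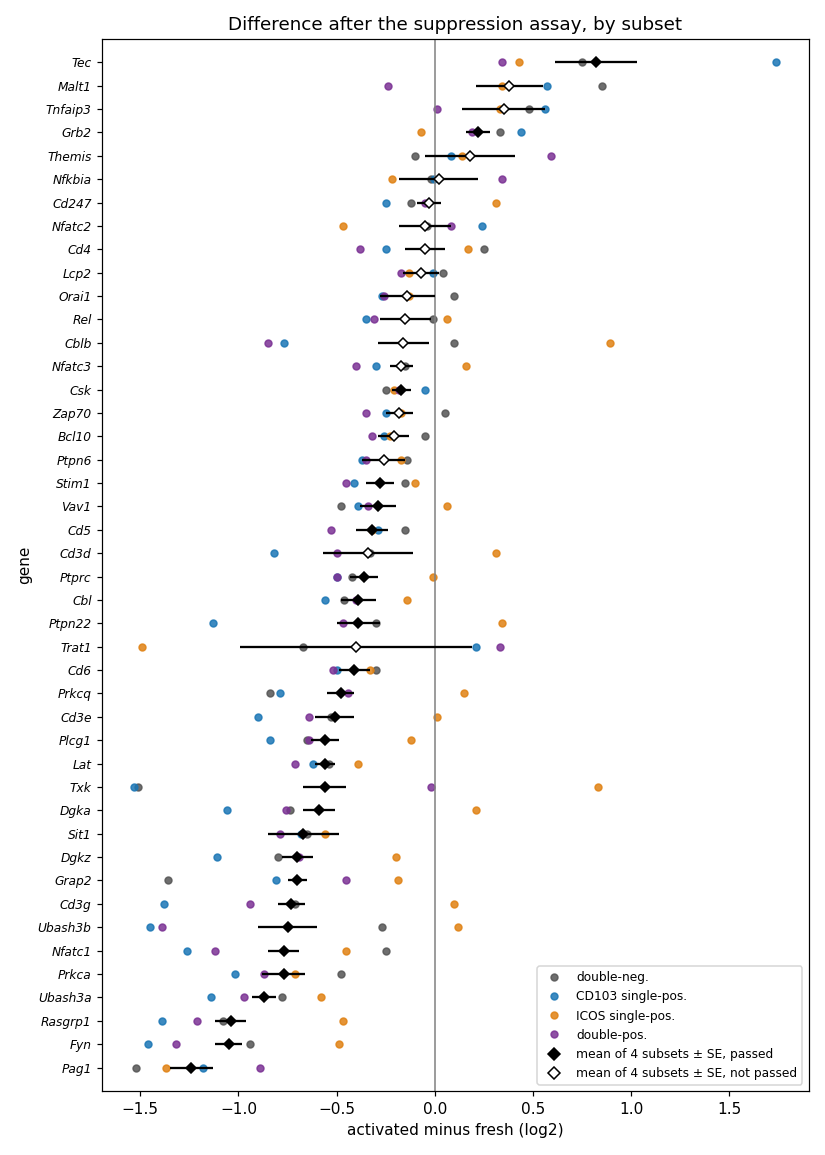
Activated minus fresh log2 difference (x axis) of each of the 44 genes (y axis), with 1 coloured point per subset and a diamond with its SE for the mean of the 4 subsets, filled where the limma adjusted p of the mean is below 0.05. The points of ICOS single-positive cells lie nearest to or above 0 for most genes that fell, with a median of -0.12 over the 44 genes against -0.50 in CD103 single-positive cells.

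In fresh cells the ICOS difference, averaged over CD103, had 5 of the 44 genes past the threshold, 2 higher and 3 lower in ICOS-positive cells. Of all genes 6.53% passed, 4.1% as higher and 2.43% as lower, and the median difference was 0.01 over the 44 genes and -0.05 over all. With dim genes removed 1267 of 11643 genes passed and 5 of the 44, which are shares close to each other. Without activated ICOS single-positive replicate 2 there were 1 higher and 3 lower, with 7.81% of all genes passed, 4.91% as higher and 2.9% as lower. Of the 5, the products of Prkcq and Malt1 act one after the other between diacylglycerol and NF-kappaB.

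Malt1 was 9.69 and 9.52 in fresh double-negative and 9.45 and 9.88 in CD103 single-positive cells, and 10.87 and 10.99 in ICOS single-positive and 10.97 and 11.17 in double-positive cells. All 4 ICOS-positive arrays lay above all 4 ICOS-negative arrays. The difference was 1.37 (SE 0.24, limma adjusted p = 0.00564), 2.58-fold, and it passed in each of the 16 fits without 1 array. In the activated state its arrays spread more, with double-negative cells at 9.75 and 11.16 and double-positive cells at 10.82 and 10.84, and the ICOS difference was 0.70 (SE 0.24, adjusted p = 0.111). Nfatc1, the NFAT member whose own transcription responds to receptor signals, was 10.65 and 10.34 in double-negative and 10.96 and 10.61 in CD103 single-positive cells, against 11.21 and 11.13 in ICOS single-positive and 11.20 and 10.79 in double-positive cells. These overlapped, and the difference of 0.44 (SE 0.12, adjusted p = 0.048) passed in 3 of the 16 fits, those without replicate 1 of fresh double-negative or CD103 single-positive cells and replicate 2 of fresh double-positive cells (adjusted p up to 0.168 in the other 13, and 0.0546 without activated ICOS single-positive replicate 2).

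Prkcq was 12.14 and 12.26 in fresh double-negative, 11.89 and 12.07 in CD103 single-positive, 11.45 and 11.57 in ICOS single-positive, and 11.30 and 11.40 in double-positive cells. The order was the reverse of that of Malt1, again without overlap between ICOS-negative and ICOS-positive arrays. The difference was -0.66 (SE 0.10, limma adjusted p = 0.00273). Grap2 was 11.86 and 11.78, 11.72 and 11.61, 11.23 and 11.25, and 11.47 and 11.41 in the same order of subsets, a difference of -0.40 (SE 0.07, adjusted p = 0.00606), also without overlap. Both passed in each of the 16 fits.

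Txk was 10.36 and 10.12 in fresh double-negative cells and between 8.92 and 9.23 on the other 6 fresh arrays. By level the double-negative arrays stood apart from the other 6. The interaction of CD103 and ICOS for this gene, 0.90 (SE 0.31, limma adjusted p = 0.705), did not pass. The averaged ICOS difference was -0.67 (SE 0.15, limma adjusted p = 0.0248), and within CD103-positive cells it was -0.22 (adjusted p = 0.893) against -1.12 (adjusted p = 0.017) within CD103-negative cells. It passed in 9 of the 16 fits and was lost without fresh double-negative replicate 1 or without any 1 array of the other 3 fresh subsets (adjusted p 0.0556 to 0.0931). Within CD103-positive cells alone none of the 44 genes passed in limma, where 435 of all 19938 genes did, and 6 had an unadjusted p below 0.05. There Prkcq gave -0.63 (adjusted p = 0.051), Malt1 1.41 (adjusted p = 0.062) and Grap2 -0.22 (adjusted p = 0.475).

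Genes that did not pass included Zap70 at 0.36 (SE 0.10, adjusted p = 0.051), Dgka at -0.42 (SE 0.11, adjusted p = 0.0546) and Tec at 0.92 (SE 0.30, adjusted p = 0.111). The 4 chains and Cd4 had differences between -0.07 and 0.33, with none passed. In the same comparison all 24 cell cycle genes rose (median 1.70), 7 of the 13 naive and central memory genes fell (median -0.98), 2 of 9 genes of activated conventional CD4 cells rose, and 3 of 21 Treg core genes rose and 1 fell. Of other cell types 2 of 9 B cell and 2 of 18 myeloid and dendritic genes rose, and of 10 CD8 and NK genes 1 rose and 1 fell. The part of these lists in the differences was not tested.

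The CD103 difference in fresh cells passed in none of the 44 genes, where 0.206% of all genes passed in limma, and 5 of the 44 had an unadjusted p below 0.05. The largest were Themis, a thymocyte selection gene, at -0.75 (SE 0.32, adjusted p = 0.62), Ubash3b at 0.64 (SE 0.21, adjusted p = 0.378), Txk at -0.56 (SE 0.15, adjusted p = 0.275) and Ptpn22 at 0.55 (SE 0.16, adjusted p = 0.297). The interaction of CD103 and ICOS passed in none either (0.0451% of all genes; 2 of the 44 at an unadjusted p below 0.05).

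Fresh double-positive against double-negative cells, the extremes of the sort, differed in 3 of the 44 genes, 1 higher and 2 lower, where 3.97% of all genes passed, 2.94% as higher and 1.03% as lower. Txk was lower by 1.24 (SE 0.22, limma adjusted p = 0.00877) and Prkcq by 0.85 (SE 0.14, adjusted p = 0.00703), and Malt1 was higher by 1.47 (SE 0.34, adjusted p = 0.0353). Ubash3b, at 9.72 and 9.51 against 10.75 and 10.85, differed by 1.19 (SE 0.30, adjusted p = 0.0537), and passed without activated ICOS single-positive replicate 2 (adjusted p = 0.0421), when 4 genes passed and 5.45% of all genes. The Malt1 call passed in 6 of the 16 fits and was lost without any fresh double-negative, ICOS single-positive or double-positive array and without any activated CD103 single-positive or double-positive array (adjusted p 0.0522 to 0.215). Txk was lost without fresh double-negative replicate 1 (adjusted p = 0.0714) or double-positive replicate 2 (0.0861), and Prkcq without fresh double-negative replicate 2 (0.0787) or double-positive replicate 1 (0.0621). The count was 1 without fresh double-negative replicate 2 or either fresh double-positive array, and 6 without either activated double-negative array. In the same comparison 15 of the 24 cell cycle genes were higher in double-positive cells (median 1.49), 9 of the 13 naive and central T cell genes lower (median -1.68), and 3 of 21 Treg core, 2 of 9 B cell and 2 of 18 myeloid and dendritic genes higher, and their part was not tested.

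After activation the ICOS difference, averaged over CD103, passed in 4 of the 44 genes, each of them higher in ICOS-positive cells, where 6.94% of all genes passed and 1.94% as higher. With dim genes removed 1517 of 11643 genes passed and 5 of the 44, each of the 5 as higher. These overall shares are close to each other, and directions were not counted apart over the 11643 genes. With the replicate number as a block in the fit 12 passed, each as higher, where 2734 of all genes did. Txk stood at 8.63 and 8.83 in double-negative, 7.33 and 8.05 in CD103 single-positive, 9.70 and 10.18 in ICOS single-positive, and 8.87 and 9.09 in double-positive cells. All 4 ICOS-positive arrays lay above all 4 ICOS-negative arrays, and the difference was 1.25 (SE 0.15, limma adjusted p = 0.00334). Cd3g stood at 11.64 and 11.79, 10.99 and 11.32, 12.36 and 12.53, and 11.78 and 11.50 in the same order, a difference of 0.61 (SE 0.10, adjusted p = 0.00722), where double-negative and double-positive arrays overlapped.

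Grap2 stood at 10.33 and 10.58, 10.91 and 10.79, 11.04 and 11.06, and 11.02 and 10.97, so that its ICOS-positive arrays were the 4 highest, and the difference was 0.37 (SE 0.07, limma adjusted p = 0.0146; 0.0514 without activated double-negative replicate 1). Ptpn22 differed by 0.73 (SE 0.16, adjusted p = 0.0216). It was lost without activated CD103 single-positive replicate 1 (adjusted p = 0.0789), ICOS single-positive replicate 2 (0.0551) and double-positive replicates 1 (0.0531) and 2 (0.0591). Without activated ICOS single-positive replicate 2, 3 genes passed as higher and Ptpn6, which encodes the phosphatase SHP-1, as lower (-0.47, adjusted p = 0.0403), where 6.65% of all genes passed, 2.81% as higher and 3.84% as lower. Within CD103-positive cells none of the 44 genes passed in limma, where 28 of all 19938 genes did. There 4 had an unadjusted p below 0.05, with Txk at 1.28 (adjusted p = 0.063) and Grap2 at 0.14 (adjusted p = 0.672). The count rose to 7 without activated double-negative replicate 2. In the same comparison 3 of 9 genes of activated conventional CD4 cells were higher (median 0.77, and 0.92 without activated ICOS single-positive replicate 2, again with 3 higher). Of the 24 cell cycle genes 8 were lower (median -0.39), and 1 without that array, and of 21 Treg core genes 1 was higher and 2 lower, and 3 higher and 1 lower without it. Among the 13 naive and central T cell genes 1 was higher, and 3 were also lower without that array. The part of these lists was not tested.

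The test of whether the ICOS difference changed with activation passed in 5 of the 44 genes, in each toward higher values in ICOS-positive cells after activation, where 6.72% of all genes passed and 2.06% in that direction. With dim genes removed 1383 of 11643 genes passed and 5 of the 44, which are shares close to each other. Directions were not counted apart over the 11643 genes. The largest was Txk at 1.92 (SE 0.22, limma adjusted p = 0.000489), for which the ICOS difference went from -0.67 fresh to 1.25 activated. Grap2 also changed sign, from -0.40 to 0.37, a change of 0.77 (SE 0.10, adjusted p = 0.00121). Prkcq went from -0.66 to 0.01, a change of 0.67 (SE 0.14, adjusted p = 0.0192), Cd3g from -0.02 to 0.61, a change of 0.63 (SE 0.14, adjusted p = 0.0233), and Dgka from -0.42 to 0.21, a change of 0.62 (SE 0.16, adjusted p = 0.0427). The fresh and activated ICOS differences of 1 gene use different arrays. In the same test all 24 cell cycle genes were lower (median -2.19) and 3 of the 13 naive and central memory genes were higher, and their part was not tested.

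Prkcq in activated cells stood at 11.24 and 11.50 in double-negative, 11.17 and 11.21 in CD103 single-positive, 11.59 and 11.73 in ICOS single-positive, and 11.12 and 10.70 in double-positive cells. Its highest and lowest activated arrays were therefore both ICOS-positive. Dgka was 13.19 and 13.07, 13.09 and 13.16, 12.67 and 12.60, and 12.80 and 12.76 in the fresh subsets, and 12.51 and 12.28, 12.17 and 11.96, 12.83 and 12.86, and 12.31 and 11.75 in the activated ones. The ICOS single-positive arrays were the lowest fresh and the highest activated ones for this gene.

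Without activated ICOS single-positive replicate 2, Txk (1.80, limma adjusted p = 0.000889), Grap2 (0.76, adjusted p = 0.00363) and Prkcq (0.63, adjusted p = 0.0426) passed, and Cd3g (adjusted p = 0.0515) and Dgka (adjusted p = 0.0774) did not, where 5.92% of all genes passed and 1.96% as higher. Prkcq was lost without fresh ICOS single-positive replicate 1 (adjusted p = 0.051). Cd3g was lost in 6 of the 16 fits, those without fresh double-negative or ICOS single-positive replicate 2, either fresh double-positive array, activated double-negative replicate 1 or activated ICOS single-positive replicate 2 (adjusted p 0.0512 to 0.0652). Dgka passed in 4 of the 16, those without replicate 1 of activated double-negative or CD103 single-positive cells or either activated double-positive array (adjusted p 0.0582 to 0.104 in the other 12). The count was 3 without fresh double-negative replicate 2, any fresh ICOS-positive array or activated ICOS single-positive replicate 2, and 7 without activated double-negative replicate 1.

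The change was also read within each CD103 class. Comparing ICOS single-positive with double-negative cells alone, all 5 genes passed, with Txk at 2.34 (limma adjusted p = 0.00174), Grap2 at 1.18 (adjusted p = 0.00106), Prkcq at 0.98 (adjusted p = 0.019), Dgka at 0.94 (adjusted p = 0.0372) and Cd3g at 0.81 (adjusted p = 0.0405). The array that stood apart is 1 of the 2 activated ICOS single-positive arrays in this comparison, which was not repeated without it. Comparing double-positive with CD103 single-positive cells, none of the 44 passed in limma and 4 had an unadjusted p below 0.05, with the same genes at 1.51, 0.36, 0.35, 0.30 and 0.44 (adjusted p = 0.0593, 0.518, 0.74, 0.814 and 0.618). Of all 19938 genes, 1046 passed in the CD103-negative comparison and 153 in the CD103-positive one. Whether the changes differ between CD103-negative and CD103-positive cells was not tested.

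**Figure D3:**
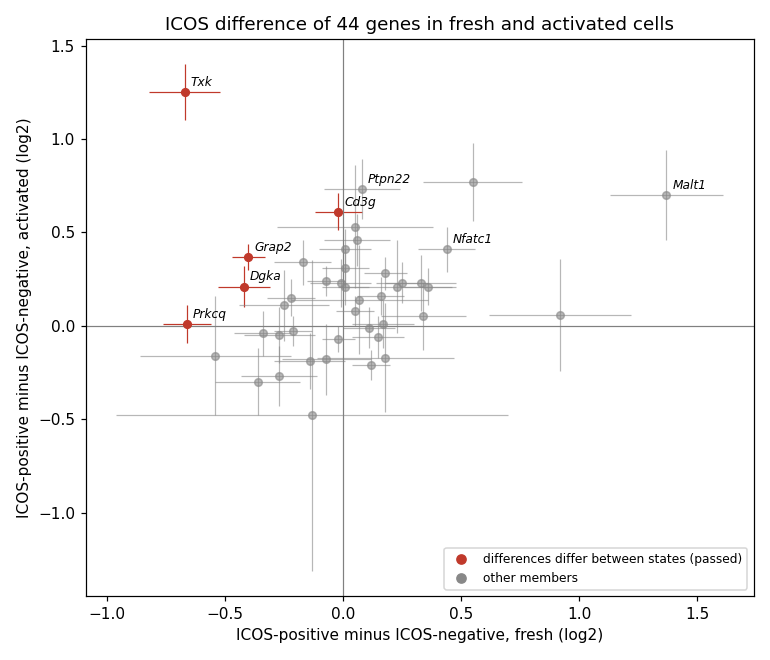
ICOS-positive minus ICOS-negative log2 difference in fresh cells (x axis) and activated cells (y axis) for each of the 44 genes, with bars of 1 SE, red points for the 5 genes past the test of the change, and Malt1, Nfatc1 and Ptpn22 named as well. Txk and Grap2 lie below 0 on the x axis and above 0 on the y axis.

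The promoters of Txk, Grap2 and Prkcq are shown because these are the 3 genes whose ICOS difference changed with activation both with and without the array that stood apart. The sequences are those of RefSeq on GRCm38.p6, each from 250 bases before to 50 bases after the annotated start, read 5′ to 3′ on the strand of the gene. Txk lies on the minus strand at chr5:72752728-72753027, and of its 2 listed starts the farthest upstream was taken. Grap2 lies on the plus strand at chr15:80623233-80623532 and Prkcq on the plus strand at chr2:11172132-11172431. Capitals mark the sole match to a searched motif.
Txk: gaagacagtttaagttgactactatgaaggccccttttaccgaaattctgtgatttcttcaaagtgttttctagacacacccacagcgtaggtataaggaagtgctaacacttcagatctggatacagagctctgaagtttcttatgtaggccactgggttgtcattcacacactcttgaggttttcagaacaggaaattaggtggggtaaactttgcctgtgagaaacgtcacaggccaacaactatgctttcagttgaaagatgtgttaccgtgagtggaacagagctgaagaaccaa
Grap2: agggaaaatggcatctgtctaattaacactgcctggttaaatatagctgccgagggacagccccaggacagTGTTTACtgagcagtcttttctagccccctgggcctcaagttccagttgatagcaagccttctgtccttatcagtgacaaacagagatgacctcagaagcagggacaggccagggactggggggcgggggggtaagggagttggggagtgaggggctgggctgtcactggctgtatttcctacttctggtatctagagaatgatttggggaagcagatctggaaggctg
Prkcq: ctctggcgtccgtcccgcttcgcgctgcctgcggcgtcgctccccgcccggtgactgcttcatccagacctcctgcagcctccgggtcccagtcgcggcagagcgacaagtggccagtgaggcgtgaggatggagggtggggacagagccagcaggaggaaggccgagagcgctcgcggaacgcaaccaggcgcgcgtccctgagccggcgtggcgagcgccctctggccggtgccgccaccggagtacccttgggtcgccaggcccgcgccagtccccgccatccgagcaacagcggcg
The motifs searched on both strands were CCGGAAG for ETS factors, TGGAAA for NFAT, GTAAACA for forkhead factors and TGTGGT for RUNX, and, for NF-kappaB, GGGA and TTCC with 2 bases of any kind between them. Of 32851 promoters of this length they occur in 8.86%, 21.4%, 3.65%, 16.8% and 1.47%. The Grap2 promoter held the forkhead letters on the opposite strand, with the first base at -179 from the start, and the other windows held none of the 5 motifs. A match is a string of letters and not a bound site.

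**Figure D4:**
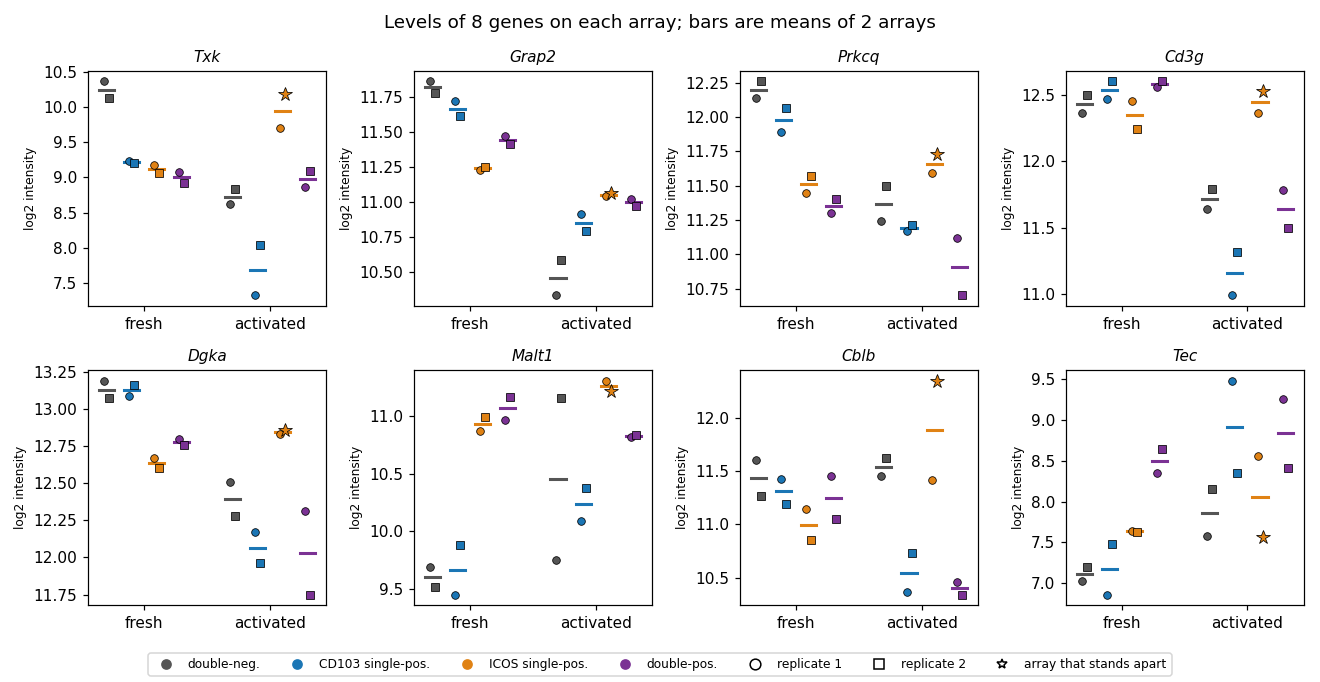
Log2 intensity (y axis) of Txk, Grap2, Prkcq, Cd3g, Dgka, Malt1, Cblb and Tec on each array, by subset and state (x axis), with 1 point per array, a bar at the mean of 2 arrays, and a star for activated ICOS single-positive replicate 2. Fresh double-negative cells are the highest fresh group for Txk, at 10.36 and 10.12, and activated ICOS single-positive cells the highest activated group, at 9.70 and 10.18.

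The CD103 difference in activated cells, averaged over ICOS, passed in 5 of the 44 genes, each lower in CD103-positive cells, where 0.717% of all genes passed and 0.517% as lower. With the replicate number as a block in the fit 12 passed, each as lower, where 519 of all genes did. The difference was negative in 34 of the 44 genes, with a median of -0.27 against 0.03 over all genes. Cblb, a ubiquitin ligase that restrains T cell activation without costimulation, stood at 11.45 and 11.62 in double-negative and 11.42 and 12.35 in ICOS single-positive cells, and at 10.36 and 10.73 in CD103 single-positive and 10.46 and 10.34 in double-positive cells. Its CD103-positive and CD103-negative arrays did not overlap, and the difference was -1.23 (SE 0.19, limma adjusted p = 0.0202), 2.35-fold. In fresh cells the Cblb difference was 0.06 (SE 0.19, adjusted p = 0.999). The others were Txk at -1.0 (SE 0.15, adjusted p = 0.0202), Nfatc1 at -0.78 (SE 0.12, adjusted p = 0.0166), Cd3g at -0.68 (SE 0.10, adjusted p = 0.0153) and Fyn at -0.62 (SE 0.10, adjusted p = 0.0258).

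These calls rested on few arrays. Without activated ICOS single-positive replicate 2, 2 genes passed, Cblb at -1.0 (limma adjusted p = 0.0234) and Nfatc1 at -0.79 (adjusted p = 0.0452), where 0.361% of all genes did and 0.241% as lower, and Cd3g, Txk and Fyn had adjusted p = 0.0519, 0.0583 and 0.0863. None passed in limma without activated CD103 single-positive replicate 1 or double-positive replicate 2 (adjusted p of the 5 genes 0.0522 to 0.102, with 20 and 18 of the 44 at an unadjusted p below 0.05). Without activated double-negative replicate 1 there were 2, with Fyn, Nfatc1 and Cblb at adjusted p = 0.0891, 0.059 and 0.0537, and there were 11 without activated ICOS single-positive replicate 1. Txk was also lost without activated double-positive replicate 1 (adjusted p = 0.0572), and Fyn without either fresh ICOS single-positive array (0.0546). Within ICOS-negative cells, without ICOS single-positive or double-positive arrays in the contrast, none of the 44 passed in limma, where 1 of all 19938 genes did. There 7 had an unadjusted p below 0.05, with Cblb at -0.99 and Txk at -1.04. Naive and central T cell genes moved in the same comparison, with 2 of 13 lower (median -0.89), as did 1 of 9 genes of activated conventional CD4 cells, and their part was not tested.

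The CD103 difference changed between the states in 1 gene of the 44, Cd3g, by -0.85 (SE 0.14, limma adjusted p = 0.0389), where 0.296% of all genes passed and 0.191% as lower. With the replicate number as a block in the fit 7 passed, each as lower, where 370 of all genes did. The Cd3g difference was 0.17 (SE 0.10) fresh and -0.68 activated. It passed in 3 of the 16 fits, those without activated CD103 single-positive replicate 2, ICOS single-positive replicate 1 or double-positive replicate 1, and had adjusted p values of 0.0531 to 0.115 in the other 13 (0.0672 without activated ICOS single-positive replicate 2). The count was 0 in 11 fits, in which 10 to 17 of the 44 genes had an unadjusted p below 0.05 in limma, 2 without activated double-negative replicate 1 or double-positive replicate 1, and 4 without activated ICOS single-positive replicate 1. Activated double-positive against double-negative cells differed in none of the 44 genes in limma, where 0.0451% of all genes passed and 10 of the 44 had an unadjusted p below 0.05. Without either activated ICOS single-positive array 2 passed, and without replicate 2 that was 1 higher and 1 lower, with 1.69% of all genes passed, 0.958% as higher and 0.732% as lower.

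Activated ICOS single-positive replicate 2 differed from its partner by more than 1 in 6 of the 44 genes, and in 3.44% of all genes. Trat1, which encodes a transmembrane adaptor that associates with the receptor and was at 9.48 to 10.48 on the fresh arrays, read 5.67, below that array's median of 6.36, against 10.55. The widest gap of Trat1 in any other pair was 1.59. Nfkbia read 10.41 against 11.82, Tnfaip3 9.42 against 10.64, and Sit1 9.16 against 10.32. Tec read 7.56 against 8.56. Themis was higher, at 9.91 against 8.74. Nfkbia and Tnfaip3 encode I-kappaB-alpha and A20, inhibitors that NF-kappaB induces.

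Gaps above 1 between the arrays of a pair occurred in 6 of the 44 genes here, in 3 in each of the activated double-negative and CD103 single-positive pairs, and in none of the 44 in the other 5 pairs. Of all genes they occurred in 3.44% here, in 2.07% and 1.01% in those pairs, and in 0.12% to 0.838% in the other 5. For 11 genes, or 25%, this pair had the widest of the 8 gaps, against 13.9% of all genes, and the activated double-negative pair also had it for 11 genes, against 11.6% of all genes. Among the receptor chains and coreceptor the levels were, for Cd3e, 12.44 against 12.62, for Cd3g 12.53 against 12.36, for Cd247 10.57 against 10.63, for Cd4 12.20 against 12.19 and for Cd3d 11.47 against 10.51. Cblb read 12.35 against 11.42. Activated double-negative cells also held a wide pair, with Themis at 8.73 and 10.27, Trat1 at 10.24 and 8.65 and Malt1 at 9.75 and 11.16.

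**Figure D5:**
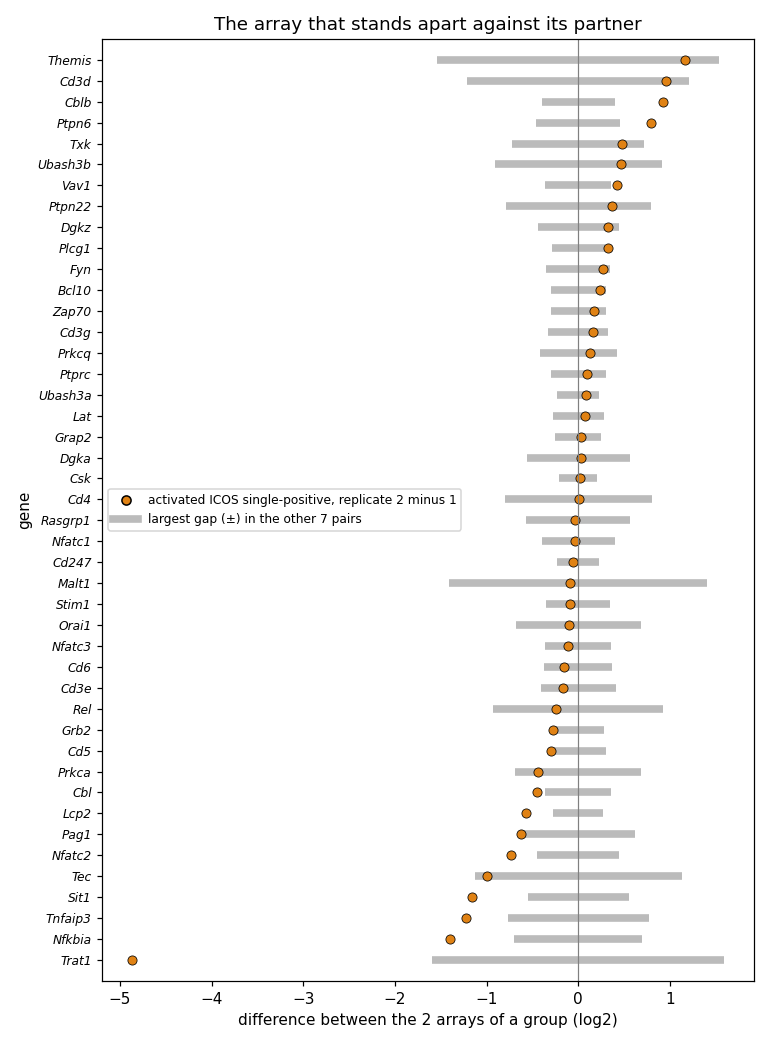
Log2 difference between activated ICOS single-positive replicate 2 and replicate 1 (x axis, points) for each of the 44 genes (y axis), over grey bars that reach as far to either side of 0 as the widest gap of that gene in the other 7 pairs of arrays. Trat1 lies far outside its bar, with levels of 5.67 and 10.55.

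A replicate offset ran through part of the set. Cd3d, Ptprc and Bcl10 were higher in replicate 2 in all 8 groups, and Cd3e, Cd247, Lcp2, Rasgrp1, Nfkbia and Cbl were lower in all 8, together 20.5% of the 44 genes against 12% of all genes. Among the 4 fresh groups alone 30 of the 44 kept 1 sign, 68.2% against 43.7% of all genes. With all arrays kept, each group holds 1 array of each number. An offset shared by all groups then widens the error of these genes without favouring a group. Where 1 array is left out, its group keeps 1 number alone, and such an offset enters the comparisons that use that group. The fits without activated ICOS single-positive replicate 2 are of this kind. Without the replicate block the offset is not removed from them.

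Of 63 further genes of the pathway that are not among the 46, 54 were measured. In the comparison of activated with fresh cells 19 of them fell and 6 rose, with a median of -0.13, where 16.8% of all genes fell and 14.4% rose. The largest falls were in Lax1, an adaptor related to LAT (-2.04, limma adjusted p = 1.02e-06), Itpr2, an inositol trisphosphate receptor (-1.72, adjusted p = 4.51e-08), and Tespa1, which is needed for thymocyte signalling (-1.42, adjusted p = 5.69e-07). The largest rises were in the adaptor gene Gab2 (0.97, adjusted p = 0.000122), the phosphatase gene Ptpn2 (0.78, adjusted p = 0.00262) and the kinase gene Map2k1 (0.60, adjusted p = 5.31e-05). In the fresh ICOS comparison 2 rose, Ptpn7 by 0.61 and Sla by 0.49, and 6 fell, among them Pik3cd by 0.68, Stim2 by 0.66 and Ikbkb by 0.45, where 4.1% of all genes rose and 2.43% fell.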

How the data were processed

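RNA from 16 samples, 2 labelled biological replicates in each of 8 groups, was hybridised to Affymetrix arrays after labelling with the WT Expression kit. The deposited values are log2 intensities of 35556 probe sets. RMA and the affy package are named per the submitters' processing notes, with versions and settings not given in the sources used here. All columns were matched to a sample by its title, and 0 were left unmapped. The annotation gives 21789 probe sets 1 symbol, 1621 several and 12146 none. The brightest 1-symbol probe set stood for a gene, without a filter on dim genes, so shares of all genes include dim ones. RMA draws array distributions together, so a difference is relative to the other genes of an array.

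limma 3.58.1 in R 4.3.3 was fitted to all 16 arrays with 8 group means (8 residual degrees of freedom, prior 2.9) for 14 comparisons, with Benjamini-Hochberg adjustment over 19938 genes in each. The p-values measure the spread between the 2 arrays of a group, pooled over groups. The fit was tested on simulated data with independent noise on each array. Those data held no part shared by same-numbered arrays and no array that stands apart, so the test does not cover these. Left-out arrays, a replicate block, array weights, a second quantile normalization, a dim filter, averaged probe sets, fits to the compared groups alone and a trended robust error model were alternatives. The 46 genes and all lists were chosen with earlier results of these data known. All measured genes were accounted for. In each comparison the genes that passed are named, up to 12 by size, and in the comparison of activated with fresh cells all that passed are named. Array values are given for the largest differences, the receptor chains, Zap70 and the genes with a gap over 1 on the array apart. No position from the array annotation is printed, because its build is not stated.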

Additional observations from a re-analysis of the deposited data

Results flagged for a closer look

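In 6 cases the difference between subsets changed between fresh and activated cells by a test of the change itself, an interaction term in limma with Benjamini-Hochberg adjustment over all genes. The ICOS difference changed by 1.92 for Txk (adjusted p = 0.000489), 0.77 for Grap2 (adjusted p = 0.00121), 0.67 for Prkcq (adjusted p = 0.0192), 0.63 for Cd3g (adjusted p = 0.0233) and 0.62 for Dgka (adjusted p = 0.0427), each higher after activation. The CD103 difference of Cd3g changed by -0.85 (adjusted p = 0.0389). Each of these 6 changes kept its sign when either replicate number was read alone. They were picked for passing on the mean of these same arrays, so the signs are no separate support. The adjusted p-values of Cd3g and Dgka without activated ICOS single-positive replicate 2 were above 0.05, at 0.0515 (ICOS), 0.0672 (CD103) and 0.0774.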

How the results depend on the processing

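The replicate numbers were checked as a pairing. Deviations from the group means of same-numbered arrays correlated at -0.02 to 0.75 (median 0.23) over the 28 pairs of groups, and at 0.50 to 0.75 between the 6 pairs of fresh groups. The labels do not say that a number marks a shared experiment, so the main fit did not take the numbers as a pairing. All but 1 of the 28 correlations were above 0.1, and the part shared by same-numbered arrays stays in the error of that fit. Its counts were lower than those with the block in each comparison listed next. With the replicate block the genes that passed numbered 8 instead of 5 for fresh ICOS, 6 instead of 3 for fresh double-positive against double-negative, 12 instead of 4 for activated ICOS, 12 instead of 5 for activated CD103, 1 instead of 0 for activated double-positive against double-negative, 5 instead of 2 for activation in ICOS single-positive cells, 8 instead of 5 for ICOS by state and 7 instead of 1 for CD103 by state. Of all genes, those that passed with the block numbered 2275 instead of 1301, 1412 instead of 792, 2734 instead of 1383, 519 instead of 143, 240 instead of 9, 1064 instead of 417, 2638 instead of 1339 and 370 instead of 59 in the same order. With the block and without activated ICOS single-positive replicate 2, a setting chosen after seeing the data, they numbered 9, 9, 13, 7, 4, 4, 5 and 4 in that order, and 26 instead of 17 for activation in double-positive cells. For the 44 genes this setting leaves 1 array in that group. In each of these comparisons more of all genes passed than in the main fit as well. These counts therefore do not set the 44 genes apart from the rest.

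Array weights gave 5 for fresh double-positive against double-negative (1028 of all genes), and a second quantile normalization gave 8 for activated ICOS (1269 of all genes). Fits to the compared groups alone gave 8 for fresh ICOS, 4 for fresh CD103, 6 for fresh double-positive against double-negative, 1 for activated ICOS, 0 for activated CD103 (21 genes at an unadjusted p below 0.05 in limma) and, for activation, 0 (11 genes) in ICOS single-positive cells but 10 in double-positive cells. The trended robust model gave 1 for activation in ICOS single-positive cells (375 of all genes). Within CD103-positive cells fresh ICOS, activated ICOS and ICOS by state gave 0 (6, 4 and 4 genes at an unadjusted p below 0.05), where 435, 28 and 153 of all genes passed. Within CD103-negative cells fresh ICOS gave 3 (661 of all genes). Within ICOS-negative cells activated CD103 and CD103 by state gave 0 (7 genes each), where 1 and 0 of all genes passed. The within-subset settings were chosen after seeing the data and use fewer arrays per contrast. Elsewhere the cause was not tested.

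With 1 array left out the counts ran from 3 to 6 for fresh ICOS, 0 to 0 for fresh CD103 and the fresh interaction (3 to 6 and 1 to 4 genes at an unadjusted p below 0.05), 1 to 6 for fresh double-positive against double-negative, 3 to 7 for activated ICOS, 0 to 11 for activated CD103, 0 to 2 for activated double-positive against double-negative, 25 to 29 for activation, 10 to 14 for it in double-negative, 17 to 23 in CD103 single-positive, 0 to 4 in ICOS single-positive and 6 to 19 in double-positive cells, 3 to 7 for ICOS by state and 0 to 4 for CD103 by state. A lone array was taken to vary like the other groups. None of the 103 gene results that passed changed sign under the settings listed in the methods. These results were picked for passing on the same arrays, and the repeats reuse those values, so the kept signs are no separate support. With all arrays kept, 674 of 715 repeats stayed past the threshold and 41 did not. The settings differed in this. Of the 41, 27 came from the fits to the compared groups alone, in which 43 stayed. With 1 array left out further calls were lost, as given for single genes above. With averaged probe sets Dgkz lost its calls in double-negative and double-positive cells. The number of arrays limits the precision.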
